A study of Mus musculus with 16 samples.

Results

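The genes described are 6 matrix metalloproteinases, Mmp3, Mmp7, Mmp10, Mmp13, Mmp14 and Mmp19, taken by symbol from the 5171 genes that hold a row in at least 1 of 4 deposited tables of differential expression in mouse colon. All 6 were found. The tables keep genes under an adjusted p of 0.05 in the authors' own test, so each of the 6 had already passed at least 1 comparison, and a row in a table is the only significance call used below. Every level is the authors' mean over the libraries of a group, in log2 RPM (reads scaled per M mapped reads of the library). Values of single libraries were not used here, so no SD between mice and no new test could be given.

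Whole tissue of the central part of the colon was taken from male C57BL/6 mice, wild type (WT) or with Smarcad1, a chromatin remodeller of the SNF2 family, deleted through Cre recombinase driven by the villin promoter (KO). Villin-Cre acts in the intestinal epithelium, so the stromal, muscle, vascular and immune cells of a KO colon keep the gene. All 4 groups shared an enriched microbiota, passed on by bedding and air from donor females of a second specific-pathogen-free facility. The WT control and KO control groups had 3 libraries each and no further treatment. The WT colitis and KO colitis groups had 5 libraries each, from mice that drank 1% dextran sulphate sodium (DSS), which injures the colon lining, until tissue was taken on day 15. Cohorts were matched for age, and the ages are not given in the sources used here. The sample labels name the colon, while the series' design text names small intestinal tissue.

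Matrix metalloproteinases are zinc-dependent endopeptidases that are made as inactive proenzymes, are activated by removal of the propeptide, and are held in check by the tissue inhibitors of metalloproteinases (TIMPs). Together they cut most proteins of the extracellular matrix and basement membrane, as well as cytokines, receptors and other proteases. In injured gut, stromal cells are known to make stromelysins and collagenase and the epithelium at a wound edge to make Mmp10 and matrilysin, while cytokines such as interleukin 1 and tumour necrosis factor induce several of these genes through promoter elements for the factor AP-1.

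Mmp13, Mmp3, Mmp10 and Mmp7 stand in this order on the plus strand of chromosome 9 (GRCm38), from 7272514 to 7283331, 7445822 to 7455975, 7502352 to 7510240 and 7692090 to 7699585. They belong to a cluster of 9 protein-coding metalloproteinase genes within 427 kb. Mmp14 lies on the plus strand of chromosome 14 from 54431612 to 54445364, and Mmp19 on the plus strand of chromosome 10 from 128790910 to 128800824. The promoters of the 4 clustered members and Mmp14 are shown, and these genes were known to differ in their change in colitis, described below. Whether any motif relates to that change was not tested. Each line gives the 150 bases upstream of the RefSeq start site, 5′ to 3′ on the plus strand of GRCm38.p6, with matches to the AP-1 motif in capitals. The windows are chr9:7272364-7272513 for Mmp13, chr9:7445672-7445821 for Mmp3, chr9:7502192-7502341 for Mmp10, chr9:7691940-7692089 for Mmp7 and chr14:54431448-54431597 for Mmp14.
Mmp13: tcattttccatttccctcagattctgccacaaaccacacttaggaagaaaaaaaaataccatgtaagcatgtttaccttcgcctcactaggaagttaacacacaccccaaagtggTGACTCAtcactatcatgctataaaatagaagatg
Mmp3: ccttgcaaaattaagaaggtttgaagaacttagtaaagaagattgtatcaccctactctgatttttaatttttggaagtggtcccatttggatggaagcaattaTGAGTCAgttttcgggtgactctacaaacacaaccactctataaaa
Mmp10: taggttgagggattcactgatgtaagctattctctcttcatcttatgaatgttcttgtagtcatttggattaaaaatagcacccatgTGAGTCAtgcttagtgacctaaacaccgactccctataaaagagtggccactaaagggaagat
Mmp7: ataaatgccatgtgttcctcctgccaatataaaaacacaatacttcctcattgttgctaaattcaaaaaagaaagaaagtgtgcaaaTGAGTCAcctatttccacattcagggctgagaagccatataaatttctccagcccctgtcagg
Mmp14: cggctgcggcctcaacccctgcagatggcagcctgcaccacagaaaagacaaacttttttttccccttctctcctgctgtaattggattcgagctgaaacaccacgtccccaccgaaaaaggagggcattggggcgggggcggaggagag

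The motif was searched as TGAGTCA and TGACTCA, which are each other's reverse complement, so both strands were covered. All 4 clustered members held 1 match within 250 bases upstream, beginning at −35 in Mmp13, −46 in Mmp3, −63 in Mmp10 and −63 in Mmp7, where −1 is the base before the start site. The Mmp14 window held none, and Mmp19 had no entry. Of 32851 promoters in the table, 2.84% held the motif within 150 bases upstream and 4.46% within 250. The letters TATAAA also stood downstream of the AP-1 match in each of the 4, beginning at −16 in Mmp13, −7 in Mmp3, −29 in Mmp10 and −26 in Mmp7, and 0.228% of all promoters held both motifs within 150 bases. Among the other metalloproteinases with a row in the tables, Mmp8, Mmp12, Mmp15, Mmp25, Mmp27 and Mmp28 held no AP-1 match in 250 bases, and Mmp2 and Mmp9 had no entry. Of those without a match, Mmp12 and Mmp25 rose in WT colitis by 2.21 and 3.04 on the log2 scale. Mmp8 and Mmp27 also rose there, from control means at or under 3 reads, while Mmp28 rose by 0.36 and Mmp15 fell by 0.50. These matches describe the letters and say nothing of binding in these mice.

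The low group means lay on the steps given by whole reads, which placed the geometric mean library size of the groups between 8.005 M and 10.1 M reads. The members' means rested on 8.17 reads per library for Mmp7 in KO control at the lowest, and on 2312 for Mmp14 in KO colitis at the highest. From these reads the counting SE of a mean was between 0.013 and 0.291 on the log2 scale. Errors below are such counting SEs, assume evenly spread reads, and leave out all variation between mice. The mean of the targeted gene, Smarcad1, was 5.77 log2 RPM in WT control, 4.59 in KO control, 5.68 in WT colitis and 4.55 in KO colitis. Its row stood in both tables of KO against WT. Only some exons of Smarcad1 are deleted, while reads were counted over all merged exons, so its KO means do not measure the deleted part. Transcripts of the colon surface epithelium were high in WT control, with 11.7 for Car1 and 11.1 for Slc26a3, while the ileal bile acid carrier Fabp6 stood at 1.22. These 3 genes were chosen after their values were seen.

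The stromelysins changed most among the members. Mmp3, a stromelysin that cuts proteoglycans, laminin and fibronectin and activates other proenzymes, had means of 1.82 log2 RPM in WT control, 1.44 in KO control, 6.58 in WT colitis and 5.42 in KO colitis. Both colitis means lay far above both control means. Mmp3 rose in colitis by 4.75 ± 0.14 in WT, a 27.0-fold rise, and by 3.98 ± 0.17 in KO, a 15.8-fold rise, and its row was in both tables of colitis against control. Mmp10, the stromelysin known from migrating epithelium at wound edges, had means of 0.91, 0.06, 5.76 and 4.47 log2 RPM in the same order of groups. It rose by 4.85 ± 0.19 in WT and by 4.41 ± 0.26 in KO, 28.9-fold and 21.3-fold, and was also listed in both tables. By size of the rise, Mmp10 ranked 34 and Mmp3 ranked 40 of the 5171 genes in WT, and 16 and 30 in KO. Of the distinct 100-base stretches of these genes' transcripts, 5 were shared between the pair, which is 0.294% of those of Mmp3 and 0.308% of those of Mmp10, so reads of the sequenced length could nearly always be told apart.

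**Figure D1:**
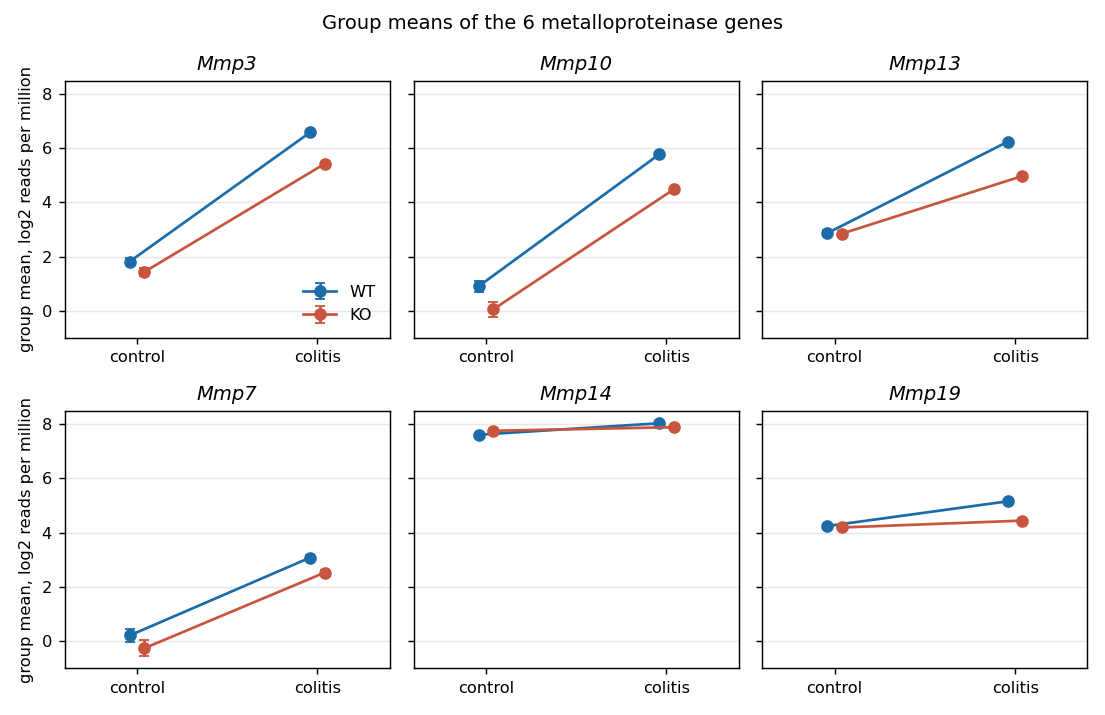
Group means of the 6 genes in log2 RPM (vertical axis) in control and colitis (horizontal axis), with WT in blue, KO in red and bars for the counting SE, which is often smaller than the point. Mmp3, Mmp10, Mmp13 and Mmp7 stood higher in colitis than in control by at least 2.12 in both genotypes, while Mmp14 moved by at most 0.42.

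Mmp13, the interstitial collagenase of rodents, cuts fibrillar collagen. Its means were 2.87 log2 RPM in WT control, 2.85 in KO control, 6.24 in WT colitis and 4.97 in KO colitis. KO minus WT was −0.022 ± 0.14 in control, which is within counting error. In colitis it was −1.27 ± 0.045, which was not listed in the table of KO against WT. Mmp13 rose by 3.37 ± 0.10 in WT and by 2.12 ± 0.11 in KO, 10.3-fold and 4.35-fold. It was listed in both tables of colitis against control. Mmp7, matrilysin, is a small metalloproteinase of epithelial cells, known in the gut for the activation of Paneth cell defensins. It was the least abundant member in reads, with means of 0.22, −0.26, 3.08 and 2.53 log2 RPM for control WT and KO and then colitis WT and KO. The difference between colitis and control was 2.87 ± 0.26 in WT and 2.78 ± 0.30 in KO. Only the KO rise was listed, although the WT difference was not smaller. An antisense gene, AV064505, overlaps 3542 bases of Mmp7, and strand-specific counting is not stated, so reads of the overlap cannot be assigned to either gene. AV064505 has its own row, with differences of 3.26 in WT and 2.99 in KO, near those of Mmp7. How far either gene's reads enter the other's values was not tested. The overlap held 2.58% of the distinct 100-base stretches of Mmp7 transcripts.

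Mmp14 is a membrane-anchored metalloproteinase that cuts collagen at the cell surface and activates the proenzymes of Mmp2 and Mmp13. It was the most abundant member by reads in every group, with means of 7.60 log2 RPM in WT control, 7.74 in KO control, 8.02 in WT colitis and 7.87 in KO colitis. All 4 means lay within 0.42. Mmp14 rose by 0.42 ± 0.024 in WT, 1.34-fold, and was listed there. In KO the difference was 0.13 ± 0.023 and was not listed. It became −0.059 once the median difference of the 5171 genes with a row was subtracted. That median is over genes that passed a comparison, not over all expressed genes, so it is not a neutral offset. Mmp19, which cuts basement membrane components and is made in stromal, vascular and epithelial cells, had means of 4.24, 4.19, 5.15 and 4.44 log2 RPM, WT before KO and control before colitis. The WT colitis mean stood apart from the other 3. Mmp19 rose by 0.91 ± 0.071 in WT, 1.88-fold, and was listed, while the KO difference of 0.25 ± 0.076 was not. On the opposite strand, Gm47093 spans Mmp19 and Tmem198b overlaps its end, and 21.9% of the distinct 100-base stretches of Mmp19 transcripts also occur in these genes, so its means may hold reads of them.

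For levels between genes, values were divided by the kilobases of merged exons, in RPKM. In WT control the order was Mmp14 with 32.5 RPKM, Mmp19 with 5.35, Mmp13 with 2.73, Mmp3 with 1.97, Mmp10 with 1.09 and Mmp7 with 1.09. Mmp10 and Mmp7 could not be separated within counting error there, nor in KO control, where they stood at 0.605 and 0.784 RPKM. In WT colitis the order became Mmp3 with 53.0 RPKM, Mmp14 with 43.5, Mmp10 with 31.5, Mmp13 with 28.2, Mmp19 with 10.1 and Mmp7 with 7.92. In KO colitis Mmp14 stayed first with 39.3 RPKM, before Mmp3 with 23.7, Mmp10 with 12.9, Mmp13 with 11.7, Mmp19 with 6.14 and Mmp7 with 5.40. Mmp14 thus made up 72.6% of the members' summed level in WT control and 77.0% in KO control, against 25.0% in WT colitis and 39.6% in KO colitis. With the length of the longest transcript, which for Mmp14 is much shorter than its merged exons, Mmp14 instead stood first in WT colitis too, at 37.9% of the sum against 25.1% for Mmp3.

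**Figure D2:**
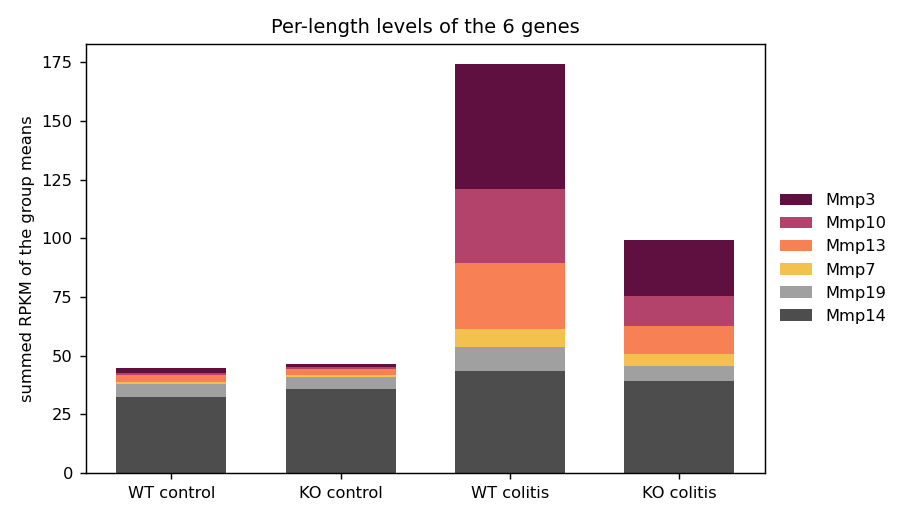
Stacked bars of the members' levels per length, in RPKM computed from the authors' group means (vertical axis), for the 4 groups (horizontal axis). The sum was 44.7 in WT control, 46.6 in KO control, 174 in WT colitis and 99.2 in KO colitis, and the dark grey part, Mmp14, stayed between 32.5 and 43.5.

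Across the members, 5 of 6 rose in the table of WT, the exception being Mmp7, and 4 of 6 rose in the table of KO, the exceptions being Mmp14 and Mmp19. None fell in either. Of all 5171 genes, 36.6% rose in the WT table and 44.8% in the KO table. A difference of at least 2-fold was seen for Mmp3, Mmp7, Mmp10 and Mmp13 in WT and again in KO, where 18.4% and 16.0% of all genes were that much higher in colitis. The members' median difference was 3.12 in WT and 2.45 in KO, and that of all genes was 0.13 and 0.19. The set of genes was chosen with such results known, so these shares describe the members and do not test them. Within the cluster on chromosome 9, 7 of 9 genes had a row, and the change of the 7 was between 2.21 and 4.85 in WT and between 2.12 and 4.41 in KO, with Mmp8 and Mmp27 starting from control means at or under 3 reads.

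The question put by the genotype is whether the loss of Smarcad1 in epithelium altered these levels with and without colitis. In control, 5 of 6 members had a lower mean in KO than in WT, with differences of −0.85 ± 0.32 for Mmp10, −0.47 ± 0.38 for Mmp7, −0.39 ± 0.21 for Mmp3, −0.053 ± 0.087 for Mmp19 and −0.022 ± 0.14 for Mmp13, and Mmp14 stood 0.14 ± 0.026 higher. Of all genes, 49.0% were lower in KO. No member was in the table of KO against WT in control, which held 0.890% of the genes. The 3 lowest of these differences belonged to the members with the fewest reads in control, and of these 3 only that of Mmp10 was past 2 counting SEs.

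In colitis all 6 members had a lower mean in KO than in WT, where 52.6% of all genes were lower. KO minus WT was −1.29 ± 0.053 for Mmp10, −1.27 ± 0.045 for Mmp13 and −1.16 ± 0.039 for Mmp3 on the log2 scale, which is 2.44-fold, 2.41-fold and 2.23-fold lower. These 3 were past 2-fold, as were 2.90% of all genes. The difference was −0.71 ± 0.058 for Mmp19, 1.64-fold lower, −0.55 ± 0.12 for Mmp7 and −0.14 ± 0.020 for Mmp14. Mmp19 was the member listed in the table of KO against WT in colitis, and 0.387% of all genes were listed there as lower in KO. The larger differences of Mmp10, Mmp13 and Mmp3 were not listed. Listing thus did not follow the size of the difference.

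**Figure D3:**
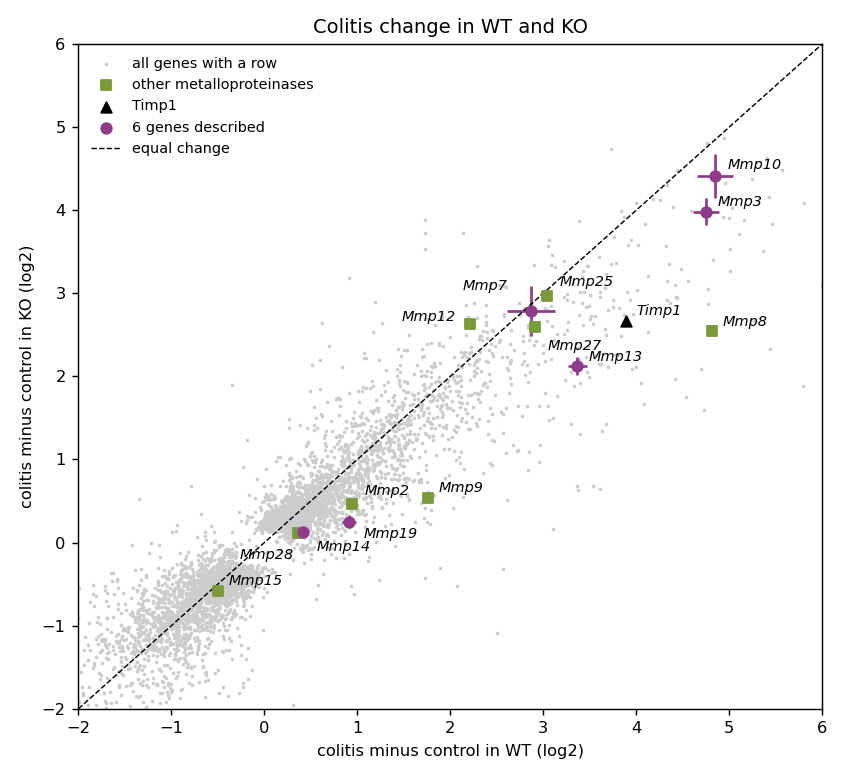
Difference between colitis and control on the log2 scale in WT (horizontal axis) and KO (vertical axis) for the 6 genes in purple with counting SEs, other metalloproteinases in green, Timp1 in black and all genes in grey, drawn from −2 to 6. Mmp8 and Mmp27 start from control means at or under 3 reads. The 6 purple points lie below the dashed line of equal change, Mmp13 the farthest at −1.24 and Mmp7 the nearest at −0.081, or at −0.37 with a floor of 10 reads.

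Read as a difference of changes, the colitis change was smaller in KO than in WT for all 6, with values of −1.24 ± 0.15 for Mmp13, −0.77 ± 0.22 for Mmp3, −0.66 ± 0.10 for Mmp19, −0.44 ± 0.33 for Mmp10, −0.29 ± 0.033 for Mmp14 and −0.081 ± 0.40 for Mmp7. Those of Mmp10 and Mmp7 were within 2 counting SEs, and with means at or under 10 reads raised to 10 the value of Mmp7 was −0.37, past that of Mmp14. The background here was high. Of the 953 genes that rose at least 2-fold in WT, 73.0% rose less in KO, and over all 5171 genes the KO change was the lower in 52.7%. In proportion, the KO change was 97.2% of the WT change for Mmp7, 91.0% for Mmp10, 83.8% for Mmp3, 63.0% for Mmp13, 31.3% for Mmp14 and 27.8% for Mmp19. For Mmp7 this share depends on the lowest counts, since with the floor of 10 reads its change was 2.49 in KO beside 2.87 in WT. The 2 members with the smallest change in WT thus kept the smallest part of it in KO, and both were listed in WT and not in KO. With the median difference of the 5171 genes with a row subtracted, Mmp14 had −0.059 in KO beside 0.29 in WT. Mmp19 had 0.062 beside 0.78. The share of Mmp14 then turned negative and fell under that of Mmp19. Both shares thus depend on an offset taken from genes that passed a comparison, and neither is firm. Whether the genotypes differed in their response was not tested, and each value uses all 4 groups, so the controls enter both changes.

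Other metalloproteinases gave the frame. Of 17 in the list, 8 had a row, with 7 that rose and 1 that fell in WT and 5 that rose and 1 that fell in KO. Beside this, 36.6% of all genes rose in the WT table and 44.8% in the KO table. Mmp12, the macrophage elastase of the same cluster, rose by 2.21 in WT and 2.63 in KO, and its KO and WT colitis means were 2.97 and 2.98. Mmp8, the neutrophil collagenase, was at or under 3 reads per library in both control groups and rose from there by at least 11.0-fold in WT, and by at least 1.75-fold in KO. Mmp9, a gelatinase of leukocytes, rose by 1.76 in WT, and its difference in KO was 0.54. Mmp2, the stromal gelatinase activated by Mmp14, rose by 0.94 in WT and 0.46 in KO. Mmp25, a membrane metalloproteinase of leukocytes, rose by 3.04 in WT and 2.96 in KO. Mmp15, the membrane relative of Mmp14, fell by 0.50 in WT and by 0.58 in KO. Its WT control mean was 8.83 log2 RPM.

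Of the 7 inhibitors, 4 had a row, of which 2 rose and 2 fell in WT, and 2 rose and none fell in KO. The shares of all genes that rose were 36.6% in WT and 44.8% in KO. Timp1, the inducible tissue inhibitor, had means of 1.36 log2 RPM in WT control, 1.32 in KO control, 5.24 in WT colitis and 3.99 in KO colitis. It rose by 3.89 in WT and by 2.67 in KO. KO minus WT in colitis was −1.26 for Timp1, close to the values of Mmp10, Mmp13 and Mmp3. Set against Timp1 on the log2 scale, the KO minus WT value in colitis was 0.096 for Mmp3, −0.033 for Mmp10 and −0.011 for Mmp13, so these 3 and Timp1 were lower in KO by nearly the same amount. Relative to Timp1, Mmp14 was 1.11 higher in KO colitis than in WT colitis, Mmp7 was 0.70 higher and Mmp19 was 0.54 higher. A2m, a broad protease inhibitor, rose in both genotypes, from means at or under the floor of 3 reads, with a rise of at least 11.8-fold in WT, against at least 4.71-fold in KO. Timp4 fell by 1.33 and Reck, a membrane-anchored inhibitor, fell by 0.65 in WT, and their differences in KO, −0.67 and −0.52, were not listed.

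Among proteases that activate the proenzymes and their regulators, 4 of 9 had a row, with 3 that rose and 1 that fell in WT and 1 that rose and 1 that fell in KO. Plaur, the urokinase receptor, rose by 1.48 and 0.92 in WT and KO. Plau, urokinase, rose by 0.68 in WT and differed by −0.059 in KO. Of 17 matrix proteins, the substrates of the members, 15 had a row. All 15 rose in WT and 7 rose in KO, by a median of 0.80 and a median difference of 0.34. Among all genes, 36.6% rose in the WT table and 44.8% in the KO table, so 7 of 15 in KO is near that share. Col1a1, the chain of type I collagen that Mmp13 and Mmp14 cut, rose by 1.23 in WT and 0.56 in KO, and Eln, elastin, rose by 1.03 in WT and differed by 0.34 in KO. KO minus WT in colitis was between −0.79 and −0.18 for these 15.

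Each of 10 cytokines taken as possible inducers of metalloproteinases had a row, of which 8 rose in WT and 8 in KO. Il11, a cytokine of stromal cells, rose by at least 62.7-fold in WT and by 3.38 on the log2 scale in KO. Il1b, an inducer of Mmp3 and Mmp13, had means of 1.07, 1.48, 6.53 and 5.31 log2 RPM, with controls first and WT before KO, and was listed in KO and not in WT, as was Mmp7. Il6 was listed in WT, where it was at least 20.0-fold higher in colitis. All 10 had lower means in KO colitis than in WT colitis, where 52.6% of all genes were lower. Tgfb1, at −0.037 ± 0.044, and Il22, at −0.28 ± 0.35, were within counting error. The median difference of the 10 was −1.04 beside −0.94 for the members. In WT, 9 of the 10 were at least 2-fold higher in colitis, and of all such genes 73.0% rose less in KO. The nearness of the 2 medians was not tested. Of 7 receptors 3 had a row. Osmr, the oncostatin M receptor, and Tnfrsf1a rose in both genotypes and Il22ra1 fell in both. Of 15 transcription factors of the AP-1, ETS, C/EBP and NF-κB families 4 had a row. Fosl2 of AP-1 fell by 0.49 in WT and 0.54 in KO, Jun fell by 0.56 in KO with −0.30 in WT, Ets1 rose by 0.50 and 0.65, and Cebpb rose by 1.31 in WT with 0.48 in KO.

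**Figure D4:**
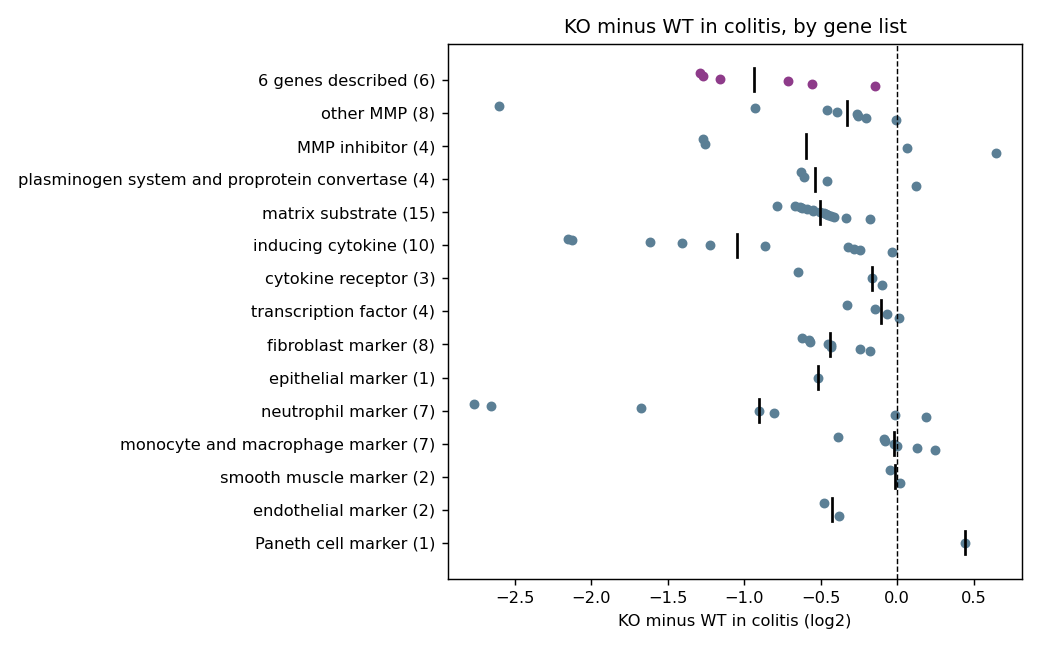
KO minus WT in colitis on the log2 scale (horizontal axis) for each gene with a row in each list (vertical axis, number of genes in brackets), with a black bar at the median. The 6 genes described had a median of −0.94, the list named inducing cytokines −1.04, matrix substrates −0.50, and monocyte and macrophage markers −0.02.

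Markers of several cell types moved as well, and in whole tissue fewer cells of a type and less RNA per cell cannot be told apart. Of 10 fibroblast markers 8 had a row, and 8 rose in WT and 6 in KO. Beside this and the counts below, 36.6% of all genes rose in the WT table and 44.8% in the KO table. The summed level of the fibroblast markers was 2672 RPM in WT control, 2592 in KO control, 5125 in WT colitis and 3802 in KO colitis. Of 10 neutrophil markers 7 had a row, with sums of 96.1, 102, 399.9 and 290.4 RPM in the same order. S100a8, Cxcr2 and Ltf were at or under the floor in both control groups, while Ly6g stood at 6.52 log2 RPM in WT control. Ly6g made up most of these sums, with 92.0 RPM in WT control, 207 in WT colitis and 236 in KO colitis. KO minus WT in colitis was −2.77 for S100a9, −2.66 for S100a8, −1.67 for Cxcr2, −0.90 for Csf3r and −0.80 for Retnlg, but −0.018 for Ltf and 0.19 for Ly6g. The 7 of 10 monocyte and macrophage markers with a row rose in both genotypes, with sums of 614, 647, 1505 and 1474 RPM. Their KO and WT colitis sums were close, unlike those of fibroblast and neutrophil markers. Lyz2 made up most of these colitis sums, with 982 RPM in WT and 968 in KO. By gene, KO minus WT in colitis ran from −0.39 for Itgam to 0.24 for Ccr2. The fibroblast sums hold Col1a1, Col1a2, Col3a1 and Dcn, which are also among the matrix proteins above, so the 2 lists are not separate. Smooth muscle markers had 2 of 6 with a row, both lower in colitis, and endothelial markers 2 of 5. Of 11 epithelial markers only Cldn4 had a row. Of 8 genes listed as Paneth cell markers only Ang4 had a row, which fell in KO by 1.95 and differed by −3.98 in WT. A single gene in colon tissue does not report on Paneth cells. The part of these cell types in the members' differences was not tested.

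The genes whose 4 group means ran most alike to each member, after each gene was centred on its own mean, were found by the root mean square difference. For Mmp3 they were Cxcl1, a neutrophil chemokine, at 0.099, Serpina3f at 0.131 and Gml at 0.190. For Mmp10 they were Mmp3 at 0.216, Serpina3f at 0.245 and Myot at 0.246. Cxcl1, Gml and Myot stood at or under the floor in control, where their means are set by the value given to a count of 0. For Mmp13 they were Cemip, which degrades hyaluronan, at 0.023, Bdkrb1, a bradykinin receptor, at 0.052 and Lgi2 at 0.059. The Cemip means were 0.99, 0.97, 4.41 and 3.13 log2 RPM in the same order as for Mmp3, with changes of 3.42 and 2.15. For Mmp7 they were Rab44 at 0.054, Serpina3g at 0.109 and Mmp25 at 0.117. For Mmp14 they were Panx1 at 0.011, 1810009A15Rik at 0.015 and Cdc42se1 at 0.016, and for Mmp19 M5C1000I18Rik at 0.027, Gm20488 at 0.046 and Adcy4 at 0.047. Among the members, Mmp3 with Mmp10 at 0.216, Mmp14 with Mmp19 at 0.262 and Mmp7 with Mmp13 at 0.301 were the closest pairs, and Mmp10 with Mmp14 the farthest at 2.24. Each likeness rests on 4 means that share their libraries. The counting SEs in WT and KO control were 0.24 and 0.29 for Mmp7 and 0.19 and 0.26 for Mmp10. These are near or above the distances to the genes most alike to them, so the order of those genes is not settled.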

How the data were processed

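RNA of whole colon tissue was sequenced as 100-base reads, single-end per the labels and paired-end per the study's methods. The authors mapped reads with HISAT2 2.1.0 to GRCm38, removed reads over ribosomal RNA, which had contaminated some libraries, counted reads over merged exons in SeqMonk and ran DESeq2 between pairs of groups. The 4 deposited tables hold, for genes that passed, the authors' adjusted p-value, of which only the threshold of 0.05 was used, and the authors' log2 RPM mean of each of 4 groups. Single libraries were not analysed here, so the design had no test. Differences of these means were computed with Python 3, with the counting SE taken from the reads per library. A mean at or under 3 reads was set to 3 for bounds. RPKM used merged exons of GENCODE for GRCm38. The depth step was tested on simulated data. Each gene of the fixed lists could be named, beside the 6 members and the 3 genes most alike to each. In the list of the plasminogen system, 1 gene is not reported here. Members and lists were chosen with earlier results of these data known. Promoter sequences are from RefSeq (GRCm38.p6), with 5 of 6 members matched. Alternatives were floors of 3 and 10 reads, centring on the median of the genes with a row, other fold thresholds, another gene length and another measure of likeness.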

Additional observations from a re-analysis of the deposited data

How the results depend on the processing

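The lowest member mean was 8.17 reads, so a floor of 3 reads could not change any value. A floor of 10 could change only values that use Mmp7 in KO control. Unchanged values under these floors were thus fixed in advance and say nothing of robustness. With them included, 107 of 111 alternative values stayed within the counting interval or, for counts, within 1.5 times. The exceptions were as follows. Subtracting the median difference of the 5171 genes with a row turned the Mmp14 difference in KO to −0.059. It also moved that of Mmp14 in WT to 0.29 and that of Mmp19 in KO to 0.062. With the longest transcript as length, the span of the members' levels in WT colitis was 3.34 on the log2 scale instead of 2.74, because the length of Mmp14 falls the most. The median member difference stayed between 2.99 and 3.12 in WT and between 2.26 and 2.45 in KO over these alternatives. At a 1.5-fold threshold 5 members were higher in WT colitis and 4 in KO colitis. Raising means at or under 10 reads to 10 moved the difference of changes of Mmp7 from −0.081 to −0.37, within its counting interval. No paired analysis was possible because the deposited columns are group means and carry no replicate numbers, and leaving out a replicate was not run. Read counts by sample in the study's supplement were not used here. Depth limits Mmp7 and Mmp10 most, with 8.17 and 10.2 reads per library in KO control.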

Other observations

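In groups of 3 libraries a mean of log2 values fixes the product of the 3 read counts, and for all 620 WT control genes and all 653 KO control genes with a product between 1000 and 100000 it lay within 0.1 of a whole number. For Mmp10 the product was 6885 in WT control, for which the least uneven whole counts are 15, 17 and 27 reads, and 1056 in KO control, for which they are 8, 11 and 12. For Mmp7 the products were 1620 and 546, with 9, 12 and 15 reads in WT and 6, 7 and 13 in KO as the least uneven counts. For Mmp3 they were 45936 and 18480, with 29, 36 and 44 reads in WT and 22, 28 and 30 in KO. These sets are the narrowest that each product allows for libraries of unknown single size, and which library held which count was not used. Other sets of whole counts give the same products, so no comparison of the genotypes was drawn from them.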
